A study of Danio rerio with 16 samples.

Results

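Bone morphogenetic proteins (BMPs), Nodal-related factors, activins and TGF-beta are secreted ligands of one family. They assemble type I and type II receptor kinases, which phosphorylate receptor Smads. These join Smad4 in the nucleus, while Smad6 and Smad7 and secreted antagonists such as Chordin, Noggin, Follistatin and Lefty limit the signal. In the zebrafish gastrula, BMP patterns the ventral side and Nodal induces mesoderm and endoderm. The id genes, which encode inhibitors of basic helix-loop-helix factors, are standard transcriptional targets of BMP.

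The genes described here are the BMP, Nodal and TGF-beta pathway genes, taken by symbol: bmp, gdf, ndr, inhb and tgfb ligands; chrd, nog, grem, fst and lft antagonists; bmpr, acvr, tgfbr and bambi receptors; smad genes; and id1 to id4. Of 27257 gene identifiers listed in the series, 81 carried such a symbol, and 58 of them reached 1 RPKM (read density: reads per length of gene model, corrected for library size) in at least 2 of the 16 libraries. These 58 were 10 of 18 BMP-type ligands, 1 of 2 Nodal-type ligands, 6 of 9 TGF-beta or activin ligands, 9 of 16 secreted antagonists and modulators, 12 of 16 receptors and pseudoreceptors, all 13 Smads and all 5 id genes. The other 2, bmp2k and tgfbrap1, match by spelling and are a kinase induced by BMP and a protein that binds TGF-beta receptors. The 23 identifiers that did not pass, ndr1, bmp10, gdf2 and grem1 among them, lay between 0.0057 and 1.38 RPKM and were not tested for change. The genes ndr2, szl, bmper and bmpr1b, and some others of the pathways, are not analysed here, so the counts do not cover the whole pathways. Where 2 identifiers share a symbol (bmp2, smad3, smad4, smad6, acvr1b, tgfbr1, fstl1), the Ensembl number tells them apart.

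The libraries were polyA RNA from whole zebrafish embryos, 40 pooled embryos each. Embryos were Gata5/6 morphants, Gata5 morphants, Gata6 morphants or WT, at 6-somites or at bud, with 2 libraries in each of the 8 groups. Morphants were injected with a morpholino, a synthetic antisense molecule that keeps an mRNA from being translated or spliced and need not lower its amount. GATA5 and GATA6 are zinc-finger transcription factors of heart and endoderm progenitors, and the study's title sets them in the specification of cardiomyocyte progenitors. The labels state no strain, morpholino dose, clutch or control injection, so injection itself and loss of the GATA factor cannot be told apart. Nothing states that the 2 libraries of a group came from separate clutches, so p-values measure the spread between these libraries, which may be technical. With 2 libraries in each group, groups can also fail to overlap without any change. A lack of overlap below describes the values, is not a test, and has no share of all genes beside it. In whole embryos, fewer cells of a type and less RNA per cell cannot be told apart.

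Depth was 19.7 to 30.8 M reads. Replicates differed more at bud than at 6-somites: the SD over genes of the log2 difference between replicates was 0.183 to 0.228 at 6-somites and 0.341 to 0.475 at bud. Gata6 bud 1 and Gata5/6 bud 1 stood apart from their replicates on 10 target genes of p53, a transcription factor activated by cellular stress. Their summed levels were 433 RPKM in Gata6 bud 1, against 261 in Gata6 bud 2, and 317 RPKM in Gata5/6 bud 1, against 148 in Gata5/6 bud 2, while both WT bud libraries lay between 132 and 149. At 6-somites the same sum was 209 to 229 RPKM in Gata5/6, 280 in both Gata5, 271 to 289 in Gata6 and 142 to 148 in WT libraries. The part of this p53 difference in the results below was not tested. Called bud results of the members, and uncalled ones that change with these libraries, are also given without both libraries; Gata5/6 and Gata6 at bud are then 1 library each, whose spread is assumed to be that of the other groups. The mRNA of gata5 was higher where its morpholino was used, at 130 and 117 RPKM in Gata5/6 and 97.0 and 91.0 in Gata5 morphants, against 27.0 and 32.3 in WT embryos at 6-somites; a rise of mRNA is not a check of the protein. Marker genes of the notochord, neural plate, paraxial mesoderm, enveloping layer, yolk syncytial layer, germ cells and blood were detected, as a whole embryo should show. Markers of endoderm and the hatching gland are not analysed here.

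In WT embryos id1, id3, the Chordin gene chrd and the pseudoreceptor gene bambi were the most abundant of the 58 at both stages. Per kilobase, id1 led at 513 ± 21 RPKM at 6-somites and 489 ± 1.9 RPKM at bud (mean ± SD, n = 2 each, as for all RPKM means below). It was followed at 6-somites by id3 (86.7 ± 4.9 RPKM), bambi (63.4 ± 2.5), which encodes a receptor-like protein without a kinase domain, and chrd (42.8 ± 0.89), which encodes the BMP antagonist of the dorsal organiser. At bud the order after id1 was chrd (112 ± 0.96), id3 (107 ± 13.0) and bambi (104 ± 5.2), and id3 did not differ from its neighbours beyond their spread. At 6-somites 21 members reached 10 RPKM and 56 reached 1 RPKM; at bud 22 and 43 did so. The receptors and the BMP-regulated Smads were spread over much of the range. The type I BMP receptor gene bmpr1a had 20.6 ± 2.1 RPKM at 6-somites and 23.5 ± 3.8 at bud, and smad5 had 19.8 ± 0.49 and 21.3 ± 1.3. Lower at 6-somites were smad1 (8.94 ± 1.2), smad9 (2.26 ± 0.1) and the receptor gene acvrl1 (1.46 ± 0.0061). The lowest members at 6-somites were lft2 (0.264 ± 0.15) and bmp8a (0.369 ± 0.019). The counts behind the low values were small: tgfb1a had 3 to 84 reads per library, bmp6 4 to 173, gdf6b and lft2 from 6, bmp8a 7 to 86 and smad10b from 9, against 1567 to 4176 for id3.

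**Figure D1:**
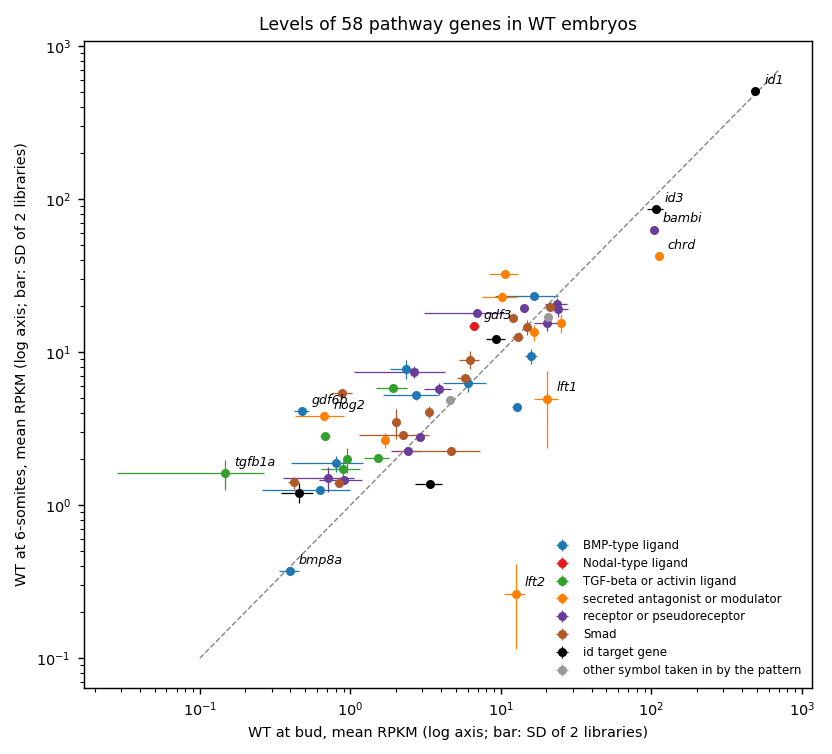
Mean RPKM of the 58 pathway genes in WT embryos at 6-somites (vertical, log axis) and at bud (horizontal, log axis), coloured by role; bars are the SD of 2 libraries and the dashed line marks equal levels. id1 lies at the top on both axes, lft2 lies far below the line (0.264 RPKM at 6-somites, 12.5 RPKM at bud) and gdf6b above it (4.14 RPKM at 6-somites, 0.479 RPKM at bud).

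Between the stages, the Lefty genes, chrd and 1 of the bmp2 genes were much lower at 6-somites than at bud, while most TGF-beta and activin ligands and several gdf genes were higher. In limma on log2(RPKM + 1) with Benjamini-Hochberg adjustment over all 14751 genes tested, 32 of the 58 members (55.2%) passed an adjusted p of 0.05 in WT embryos, 24 higher and 8 lower at 6-somites. Among all genes tested, 29.9% passed, 20.3% higher and 9.57% lower. Some members had to differ by the choice of genes: bmp7, gdf6b, id2b, smad10b and tgfb1a were under 1 RPKM in every bud library, and lft2 was so in every 6-somites library. These 6 passed the filter only through the stage in which they are high. Outside 6-somites, bmp6 reached 1 RPKM only in WT bud 1, and bmpr2 and gdf11 only in Gata5 bud 2. As the filter asks for 2 libraries, they too passed only through 6-somites, where they were called higher. All these stage differences are given as a description. Of the 41 members at or above 1 RPKM in all 16 libraries, 11 were called higher and 7 lower. The share of all genes under that stricter condition was not computed, so these counts are a description and show no excess. The median log2 change was 0.37 over the 58 members and 0.08 over all genes tested.

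The Lefty proteins are secreted inhibitors of Nodal. At 6-somites lft1 had 3.14 and 6.82 RPKM in WT embryos, against 22.8 and 17.7 RPKM in WT embryos at bud (log2 change -1.89 ± 0.27 SE, limma adjusted p = 0.00041). For lft2, 1 of the 6 genes just named, the values were 0.159 and 0.370 RPKM at 6-somites, against 11 and 13.9 RPKM at bud, a log2 change of -3.41. The stages did not overlap for either gene. chrd fell to 43.4 and 42.1 RPKM at 6-somites, against 111 and 113 RPKM at bud (-1.37 ± 0.16, adjusted p = 7.4e-05), and fst, which encodes the activin and BMP antagonist Follistatin, fell by 0.66 on the log2 scale (SE 0.13, adjusted p = 0.0028). The other members of the 8 were bmp2 ENSDARG00000041430 (-1.34 ± 0.19), id4 (-0.87 ± 0.15), bambi (-0.71 ± 0.18) and bmp7a (-0.70 ± 0.14). Not all secreted antagonists and modulators fell: of 9, 4 were lower and 3 higher. Higher was nog2, a Noggin gene, with 4.01 and 3.65 RPKM at 6-somites against 0.837 and 0.503 RPKM at bud (1.54 ± 0.17). So were both fstl1 genes (1.53 ± 0.17 for ENSDARG00000015559 and 1.13 ± 0.27 for ENSDARG00000039576).

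Of the ligands, gdf6a, which encodes a BMP ligand of the dorsal ectoderm and eye field, rose to 6.99 and 8.53 RPKM in WT embryos at 6-somites, against 2.68 and 1.97 RPKM at bud (1.40 ± 0.16). Its relative gdf6b, also 1 of the 6 genes above, had 4.28 and 3.99 RPKM at 6-somites, against 0.518 and 0.441 RPKM at bud, a log2 change of 1.80. Each ligand stood clear of its bud values in both libraries. Of the 6 TGF-beta or activin ligands, 5 were called higher. Among them, tgfb1a and gdf11, with a log2 change of 1.19 each, passed the filter only through 6-somites. The others were inhbb (1.23 ± 0.18), tgfb3 (0.61 ± 0.14) and tgfb2 (0.53 ± 0.15). For inhba the log2 change was 0.28 ± 0.12 (limma adjusted p = 0.095). gdf3, the zebrafish Vg1 gene, whose product signals together with Nodal, rose to 14.2 and 15.5 RPKM at 6-somites, against 7.04 and 6.31 at bud (1.05 ± 0.24, adjusted p = 0.0066). The 2 genes with the symbol bmp2 moved in opposite directions: ENSDARG00000013409 rose by 0.76 ± 0.20 on the log2 scale while ENSDARG00000041430 fell. On the receiving side, 1 of the 2 smad3 genes (ENSDARG00000036096, 1.76 ± 0.15), 1 of the 2 tgfbr1 genes (ENSDARG00000042259, 1.34 ± 0.32) and tgfbr2 (1.28 ± 0.23) rose; smad3 encodes a receptor Smad of TGF-beta, activin and Nodal, and the tgfbr genes encode its receptors. The receptor Smads smad1, smad2 and smad5, bmpr1a and id1 were not called, with log2 changes of id1 and smad5 within the spread of replicates. In all, 17 of the 32 calls were kept when any library of the groups was left out and under every other setting that tested them. The other calls were lost under at least 1 of these; among them, those of bmp2 ENSDARG00000013409, gdf3, both TGF-beta genes tgfb2 and tgfb3, tgfbr1, bambi and fstl1 ENSDARG00000039576 were lost without WT bud 2.

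**Figure D2:**
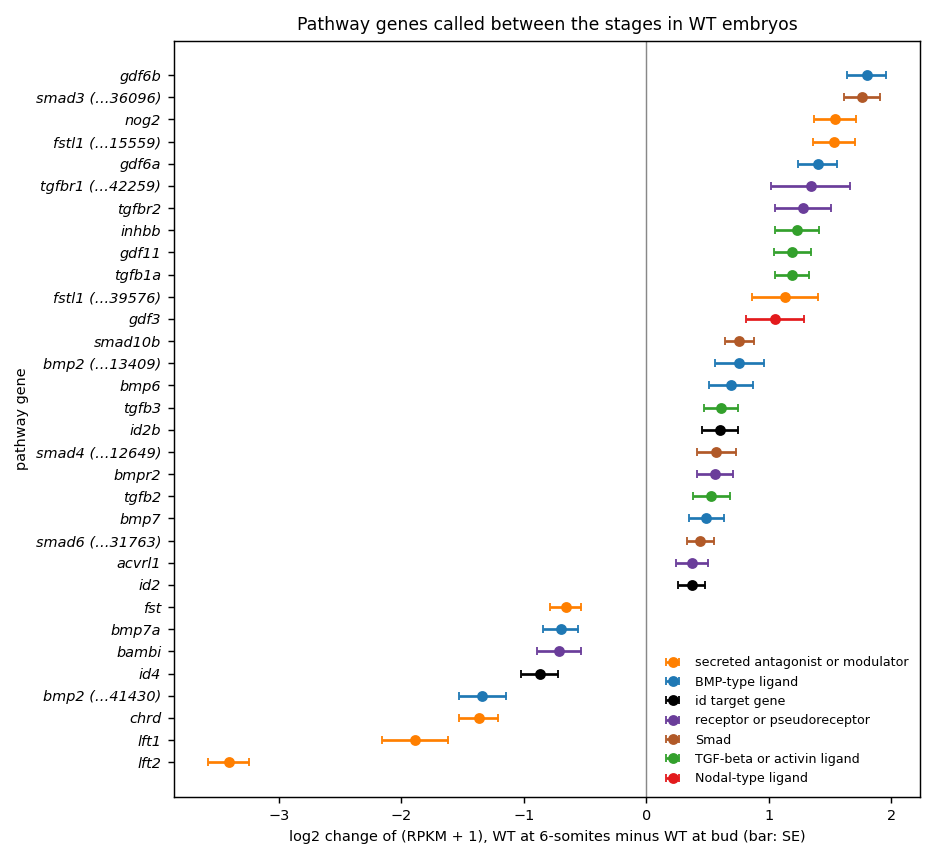
Log2 change of RPKM + 1 between WT embryos at 6-somites and at bud (horizontal; positive means higher at 6-somites) for the 32 pathway genes called by limma, coloured by role; bars are standard errors of the fit. The 24 genes to the right end in gdf6b at 1.80 and the 8 to the left in lft2 at -3.41, both of which reached 1 RPKM only at the stage where they are high.

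Other genes of the pathways also differed between the stages. Of 22 other genes that read out or tune BMP, 3 were higher (dlx5, 1 furin gene and sost) and 6 lower (gata3, cdx4, gata2, tfap2a, dlx3 and tbx16l) at 6-somites than at bud in WT embryos, beside 20.3% higher and 9.57% lower of all genes tested. Of 15 that read out or tune Nodal, 3 were higher and 6 lower (the same background). Among the 3 was dand5, which encodes a Nodal antagonist of the left-right organiser (1.87 ± 0.32). Among the 6 were gsc, the organiser gene goosecoid (-2.33 ± 0.21), and foxh1, whose product is a DNA-binding partner of Smad2 (-1.28 ± 0.16). In these lists, sost and the Nodal gene ltbp1 were under 1 RPKM in every bud library. Both passed the filter only through 6-somites libraries, so their stage differences are a description.

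In Gata5/6 morphants at 6-somites, 3 members fell and none rose: the ligand gene bmp6, the inhibitory Smad gene smad6 (ENSDARG00000031763) and the target gene id2. Thus 3 of 58 were called, while 3.8% of all genes tested were called in this comparison. bmp6 had 0.373 and 0.587 RPKM in Gata5/6 morphants, against 2.03 and 1.72 RPKM in WT embryos, a ratio of means of 0.256 (log2 change of RPKM + 1 -0.96 ± 0.18, limma adjusted p = 0.013). No Gata5/6 library reached 1 RPKM of bmp6, so this gene passed the filter only through groups in which it was higher. smad6 had 11.7 and 11.5 RPKM in Gata5/6 morphants, against 17.5 and 16 RPKM in WT embryos (-0.50 ± 0.11, adjusted p = 0.034). For id2 the values were 9.0 and 8.22 RPKM in Gata5/6 morphants, against 12.3 and 12.2 RPKM in WT embryos (-0.47 ± 0.11, adjusted p = 0.047). As a description, the Gata5/6 and WT libraries did not overlap in any of the 3 genes. These calls lay close to the threshold: bmp6 lost its call without WT 1, WT 2 or Gata5/6 1 (adjusted p up to 0.16), and smad6 and id2 lost theirs without any 1 of the 4 libraries (up to 0.27). The id2 call was also lost with a pseudocount of 0.1 RPKM and with a filter at 5 RPKM.

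When limma was fitted to the 6-somites libraries alone, whose replicates agree more closely, 11 members were called, 3 higher and 8 lower, while 20.2% of all genes were called. The 8 lower were bmp6, smad6 (ENSDARG00000031763), id2, id3, gdf3, smad10a, tgfbr2 and tgfbr1 (ENSDARG00000042259), and the 3 higher were bmp3, fst and lft2. By direction alone, 44 of the 58 members had a negative and 14 a positive change, with a median log2 change of -0.10, against -0.02 over all genes tested. The highest change, 0.74, was that of lft1 and was not called. lft1 had 9.86 and 7.37 RPKM in Gata5/6 morphants, against 3.14 and 6.82 RPKM in WT embryos. Of the 12 receptors 11, and of the 13 Smads 11, had a negative change, and smad6 (ENSDARG00000031763) was the only one of these called.

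The fall of bmp6 came with a difference in yolk markers. Of the 3 yolk syncytial layer markers, slc26a1 and apoa1a could be tested and mxtx2 could not. Their summed level at 6-somites was 678 to 703 RPKM in Gata5/6, 1380 to 1470 in Gata5, 1560 to 1670 in Gata6 and 1560 to 1660 in WT libraries. The sum was nearly all apoa1a, at 630 and 656 RPKM in Gata5/6 morphants, against 1650 and 1550 RPKM in WT embryos. The other marker went the opposite way: slc26a1 had 47.8 and 47.1 RPKM in Gata5/6 morphants, against 6.82 and 10 RPKM in WT embryos. The part of the yolk syncytial layer in the bmp6 result was not tested.

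Set against single morphants at 6-somites, bmp6 was also lower in Gata5/6 than in Gata5 morphants, where it had 1.37 and 1.61 RPKM (-0.75 ± 0.18, limma adjusted p = 0.047). Here too, bmp6 passed the filter through the single morphants and WT embryos and through no Gata5/6 library. That call and the bmp8a call described below were the only 2 of 58 in this comparison, against 3.18% of all genes tested, and the bmp6 call was lost with a pseudocount of 0.1 RPKM, with median-of-ratios scaling, with limma-voom on recovered reads and without any 1 of the 4 libraries (adjusted p up to 0.35). Against Gata6 morphants, where bmp6 had 1.33 and 1.57 RPKM, its log2 change was -0.73 ± 0.18 (adjusted p = 0.097), and no member was called, against 0.59% of all genes. At an unadjusted p under 0.05 limma gave 3 members higher and 2 lower there, with 12.4% of all genes, and the fit of that stage alone called 3 higher and 3 lower, with 11.2% of all genes.

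In Gata5 morphants at 6-somites the only member called was bmp8a, 1 of 58, against 0.475% of all genes tested. This BMP-type ligand gene had 1.36 and 1.49 RPKM in Gata5 morphants, against 0.383 and 0.355 RPKM in WT embryos, a ratio of means of 3.86 (log2 change 0.82 ± 0.11, limma adjusted p = 0.014). At bud it had 1.54 and 1.95 RPKM in Gata5 morphants, against 0.439 and 0.356 RPKM in WT embryos, a ratio of 4.39 (0.97 ± 0.11, adjusted p = 0.0044), again the only member called of 58, against 0.359% of all genes. The 4 Gata5 libraries were the only ones of the 16 above 1 RPKM, so bmp8a passed the filter only through the group in which it was high; without any filter both calls held.

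The Gata5/6 morphants did not share the rise. bmp8a had 0.380 and 0.446 RPKM in Gata5/6 morphants at 6-somites and 0.262 and 0.403 RPKM at bud, with 1 library inside and 1 outside the WT range at each stage, and 0.327, 0.265, 0.303 and 0.170 RPKM in the 4 Gata6 libraries. The difference itself was called, under the same limit that bmp8a passed the filter only through the Gata5 libraries. Gata5/6 against Gata5 morphants gave -0.78 ± 0.11 at 6-somites (limma adjusted p = 0.0057) and -1.04 ± 0.11 at bud (adjusted p = 0.0029). Both calls were kept without any filter. Between these groups at bud, bmp8a was the only member called, against 0.739% of all genes. The bud difference was kept without any 1 of the 4 libraries (adjusted p up to 0.037), and the 6-somites difference was lost without Gata5/6 1 or Gata5 2 (up to 0.081). The 6-somites difference from WT lost its call without any 1 of the 4 libraries (up to 0.17), and the bud difference from WT lost it without WT 2 alone (0.065). Without Gata6 bud 1 and Gata5/6 bud 1 the bud changes were 0.97 in Gata5 morphants against WT (adjusted p = 0.0057) and -0.96 in the 1 Gata5/6 library left against Gata5 morphants (0.026). In the fit of the bud stage alone neither bud difference passed: limma gave an adjusted p of 0.36 for Gata5 morphants against WT (0.00678% of all genes called) and 0.17 for Gata5/6 against Gata5 morphants (0% called).

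The fit of the 6-somites libraries alone called 11 members in Gata5 morphants, against 8.47% of all genes: bmp3, bmp8a, fst and tgfb2 higher, and bambi, bmp4, gdf3, id2, id3 and both smad6 genes lower. In the fit of all libraries these, bmp8a apart, missed the threshold, id2 narrowly: 7.86 and 7.84 RPKM in Gata5 morphants, against 12.3 and 12.2 in WT embryos (-0.58 ± 0.11, adjusted p = 0.056). fst had 23.3 and 24.2 RPKM in Gata5 morphants and 21.7 and 22.7 in Gata5/6 morphants, against 14.1 and 17.2 in WT embryos, with log2 changes of 0.58 ± 0.13 (adjusted p = 0.086) and 0.49 ± 0.13 (0.063). Without Gata6 bud 1 and Gata5/6 bud 1, id2 in Gata5 morphants (limma adjusted p = 0.02) and fst in both groups (0.021) passed. So did id3 in Gata5 morphants (-0.45, limma adjusted p = 0.047). The log2 changes of id2, fst and id3 stayed the same, because those libraries enter only through the spread shared by all groups. The fst levels of the Gata6 libraries at 6-somites, at 15.1 and 14.1 RPKM, overlapped WT. At bud they were 20.5 and 16.8 RPKM, below the 24.3 and 26.1 RPKM of WT embryos, without a call. The bud change without Gata6 bud 1 and Gata5/6 bud 1 was -0.55 in the 1 Gata6 library left. Over all 58 members the median log2 change in Gata5 morphants was 0.02, the same as over all genes tested.

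In Gata6 morphants at 6-somites no member was called by limma, against 0.339% of all genes; at an unadjusted p under 0.05, 8 were lower and 0 higher (9.09% of all genes), and limma-voom on recovered reads called 0 (0.395% of all genes). The fit of that stage alone called 8 lower and 0 higher, against 6.29% of all genes: both smad6 genes, smad7, id2, bambi, nog2, gdf11 and acvr2b, an activin receptor gene. smad6 ENSDARG00000031763 had 11.9 and 13.0 RPKM in Gata6 morphants, against 17.5 and 16 in WT embryos, and id2 had 9.91 and 9.30 RPKM, against 12.3 and 12.2. Neither gene's groups overlapped, and neither passed in the fit of all libraries (adjusted p = 0.20 and 0.34). Of the 58 changes 48 were negative and 10 positive, with a median of -0.12, against -0.03 over all genes.

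**Figure D3:**
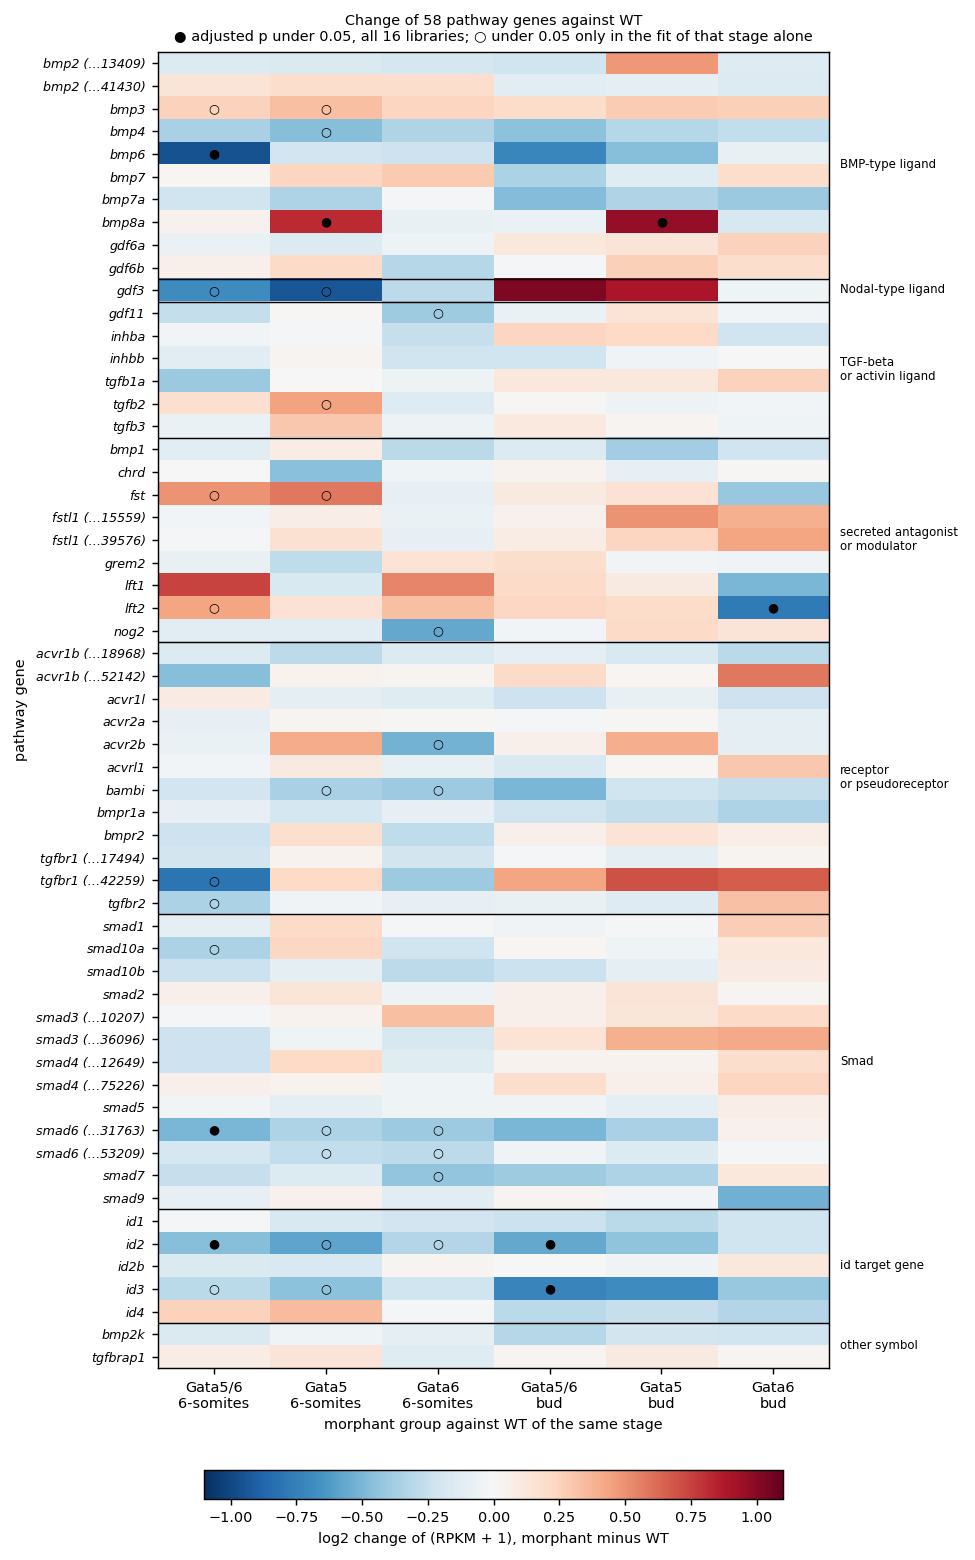
Log2 change of RPKM + 1 of the 58 pathway genes (rows, grouped by role) in each morphant group against WT of its stage (columns); red is higher and blue lower in the morphants, and genes that share a symbol carry the last digits of their Ensembl number. Filled circles mark the 8 calls of the fit of all 16 libraries, open circles those made only by the fit of that stage alone, all at 6-somites. Blue runs along the rows of id2, id3, bmp4 and bambi, while bmp8a is red in both Gata5 columns and gdf3 is blue in Gata5/6 and Gata5 morphants at 6-somites but red at bud.

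At bud, 2 members fell in Gata5/6 morphants and none rose, both id genes, against 1.59% of all genes tested. id3 had 68.1 and 59.6 RPKM in Gata5/6 morphants, against 116 and 97.5 RPKM in WT embryos (log2 change -0.73 ± 0.13, limma adjusted p = 0.023). For id2 the values were 5.69 and 6.24 RPKM in Gata5/6 morphants, against 8.38 and 10.2 RPKM in WT embryos (-0.56 ± 0.11, adjusted p = 0.035). Neither gene's libraries overlapped between the groups. Without Gata6 bud 1 and Gata5/6 bud 1, the log2 change of id3 was -0.82 (adjusted p = 0.014) and that of id2 was -0.50 (0.10), and 3 members were called: id3, smad6 (-0.65, 0.027) and bambi (-0.74, 0.029), with 0.963% of all genes called. In that fit Gata5/6 at bud is the single library Gata5/6 bud 2, and the other groups supply its spread. The id3 call was lost without Gata5/6 1, Gata5/6 2 or WT 1 (up to 0.15), and the id2 call without Gata5/6 1, WT 1 or WT 2 (up to 0.21). The fit of the bud stage alone called none of the 58, with 0.0407% of all genes called.

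The id genes moved unequally. Against WT at bud all 5 had a change of zero or below in Gata5/6 and in Gata5 morphants, but id1, the most abundant, had log2 changes of only -0.24 and -0.30 there (adjusted p = 0.43 in both) and -0.02 in Gata5/6 morphants at 6-somites. id3 had 62.2 and 68.8 RPKM in Gata5 morphants at bud (-0.69 ± 0.13, adjusted p = 0.056, and 0.013 without Gata6 bud 1 and Gata5/6 bud 1), and 90.2 and 69.1 RPKM in Gata6 morphants (-0.42 ± 0.13, adjusted p = 0.12, and -0.61 with 0.0086 without those libraries). id2 lay below both WT libraries in all 6 morphant libraries at 6-somites and in 5 of 6 at bud. The comparisons share their WT libraries, so they are not independent of each other. The other 2 id genes, id4 and id2b, were at 3.83 RPKM or less in all 16 libraries and were not called in any comparison with WT.

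Beside the id genes, smad6 (ENSDARG00000031763), itself induced by BMP, had 9.24 and 7.34 RPKM in Gata5/6 morphants at bud, against 12.6 and 11.5 RPKM in WT embryos (-0.50 ± 0.11, adjusted p = 0.052). In Gata6 morphants at bud it had 12.8 and 12.2 RPKM, overlapping WT, and Gata5/6 against Gata6 morphants was called (-0.54 ± 0.11, adjusted p = 0.032; lost without Gata5/6 bud 2, 0.15). Between the 1 library left in each group without Gata6 bud 1 and Gata5/6 bud 1 the difference was -0.66, a value with no replicate in either group. bmp6 had 0.0682 and 0.0988 RPKM in Gata5/6 morphants at bud, against 1.09 and 0.519 RPKM in WT embryos, a ratio of means of 0.104 that rests on few reads. As at 6-somites, bmp6 passed the filter through no Gata5/6 library. Its test missed the threshold on the main scale (-0.72 ± 0.18, adjusted p = 0.078; -0.70 and 0.14 without Gata6 bud 1 and Gata5/6 bud 1) and passed with a pseudocount of 0.1 RPKM (0.018) and with limma-voom on recovered reads (0.025). Among other ligands, bmp4, which patterns ventral tissue and later the heart field, had negative changes in all 6 comparisons, from -0.47 to -0.27, with adjusted p of 0.23 or more. The medians over the 58 members at bud, -0.02 in Gata5/6, -0.02 in Gata5 and -0.01 in Gata6 morphants, differed by 0.01 or less from those over all genes.

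In Gata6 morphants at bud, 1 member was called, lft2, against 1.63% of all genes tested. It had 5.52 and 8.28 RPKM in Gata6 morphants, against 11 and 13.9 RPKM in WT embryos, a ratio of 0.553 (log2 change -0.78 ± 0.17, limma adjusted p = 0.042). The groups did not overlap, and the Gata5/6 libraries (15.2 and 14.3 RPKM) and Gata5 libraries (14.3 and 14.4 RPKM) were all above WT. The call was lost without WT bud 2 (0.29) and with a pseudocount of 0.1 RPKM, no filter, a filter at 5 RPKM, median-of-ratios scaling or the fit of the bud stage alone (0% of all genes called). Without Gata6 bud 1 and Gata5/6 bud 1 the change was -0.53 (adjusted p = 0.05), and 9 members were then called, 3 higher and 6 lower, with 17.9% of all genes called, where the Gata6 group is a single library assumed to vary like the others. The difference from Gata5/6 morphants was called too (1.02 ± 0.17, adjusted p = 0.014), and was 0.72 between the 1 library left in each group without both. It was lost without Gata5/6 bud 1 (0.057), with a pseudocount of 0.1 RPKM (0.06) and in the fit of that stage alone (0.24, with 0.0271% of all genes called).

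The other Lefty gene, lft1, had 16.2 and 12 RPKM in Gata6 morphants at bud, against 22.8 and 17.7 RPKM in WT embryos, without a call. At 6-somites its Gata6 libraries, at 7.48 and 7.07 RPKM, were above the 3.14 and 6.82 RPKM of WT embryos. The notochord markers moved unequally beside lft2. Their summed level at bud, over 4 genes, was 66.5 to 70.9 RPKM in Gata5/6, 66.8 to 67.5 in Gata5, 35.8 to 42.7 in Gata6 and 52.6 to 63.8 in WT libraries, and 1 of the 4, noto, fell in Gata6 morphants (-0.88 ± 0.16, adjusted p = 0.024). Both shh genes had negative changes there (-0.42 and -0.51), while tbxt went the other way, with 6.82 and 7.01 RPKM in Gata6 morphants, against 4.05 and 5.34 RPKM in WT embryos (0.48 ± 0.18, adjusted p = 0.18). The part of the notochord in the lft2 result was not tested. Blood and ventral mesoderm markers summed to 6.95 to 8.48 RPKM in Gata6 and 2.09 to 2.72 RPKM in WT libraries at bud. In the comparison of Gata5/6 with Gata6 morphants at bud, 3 of 58 members were called, against 2.61% of all genes: lft2, gdf3 and smad6. gdf3 had 19.5 and 11 RPKM in Gata5/6, against 8.27 and 4.92 RPKM in Gata6 morphants (1.08 ± 0.24, adjusted p = 0.04), and lost its call without Gata5/6 bud 1 or Gata6 bud 2 (up to 0.15) and with no filter; without Gata6 bud 1 and Gata5/6 bud 1 the difference, of 1 library each, was 1.02. In the fit of the bud stage alone none of the 3 passed.

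**Figure D4:**
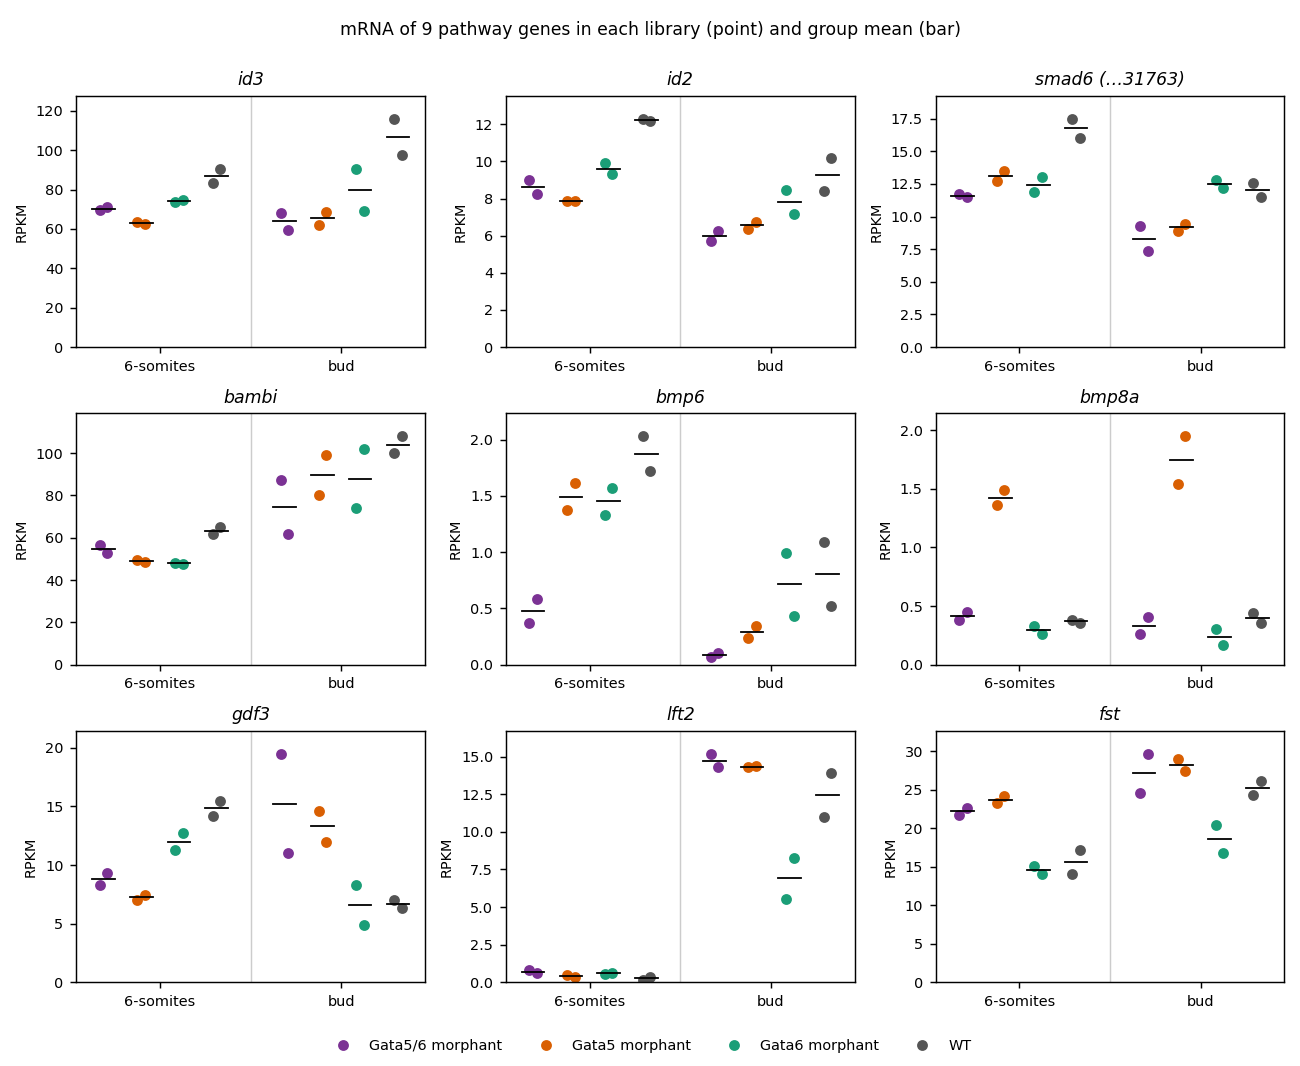
RPKM of 9 pathway genes in each of the 16 libraries, with 6-somites left and bud right in each panel, Gata5/6, Gata5, Gata6 and WT libraries from left to right, and bars at group means; vertical axes start at 0. id2 shows the WT libraries highest at 6-somites (12.3 and 12.2 RPKM), bmp8a only the Gata5 libraries above 1 RPKM, and gdf3 the Gata5/6 and Gata5 libraries below WT at 6-somites and above it at bud.

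Of the 58 members, gdf3 had the largest stage difference of both the Gata5/6 and the Gata5 effect. At 6-somites it had 8.31 and 9.31 RPKM in Gata5/6 and 7.04 and 7.47 RPKM in Gata5 morphants, against 14.2 and 15.5 RPKM in WT embryos. At bud it had 19.5 and 11 RPKM in Gata5/6 and 14.6 and 12 RPKM in Gata5 morphants, against 7.04 and 6.31 RPKM in WT embryos. Thus both groups were below WT at the later stage and above it at the earlier, without overlap at either. The single comparisons with WT missed the threshold in limma: -0.69 ± 0.24 (adjusted p = 0.15) and -0.94 ± 0.24 (0.12) at 6-somites, 1.03 ± 0.24 (0.058) and 0.90 ± 0.24 (0.18) at bud. The difference of the Gata5/6 effect between the stages was -1.73 ± 0.34 (unadjusted p = 0.00029, adjusted p = 0.13), and that of the Gata5 effect was -1.84 ± 0.34 (0.00017 and 1.0). Without Gata6 bud 1 and Gata5/6 bud 1, gdf3 passed in Gata5/6 morphants at 6-somites (limma adjusted p = 0.0084). It also passed in Gata5 morphants at 6-somites (0.0065) and at bud (0.0078). The log2 changes in these 3 comparisons stayed the same, because those libraries enter them only through the spread shared by all groups. In the 1 Gata5/6 library left at bud the change was 0.65. The stage difference of the Gata5 effect then passed (-1.84, adjusted p = 0.012) and that of the Gata5/6 effect did not (-1.34, 0.057). Gata6 morphants, at 11.3 and 12.7 RPKM at 6-somites and 8.27 and 4.92 RPKM at bud, had no such turn, with changes of -0.29 and -0.05.

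In the fit of all libraries no member was called for a difference of a morphant effect between 6-somites and bud. Among all genes 0.00678% were called for the Gata5/6, 0% for the Gata5 and 0.0203% for the Gata6 effect. At an unadjusted p under 0.05 limma gave 2 members higher and 3 lower, 3 higher and 2 lower, and 2 higher and 7 lower in the same order, where 8.72%, 3.09% and 7.92% of all genes passed. Limma-voom on recovered reads called none of the 58, and 0%, 0% and 0.102% of all genes. For lft2 the Gata6 effect differed by 1.11 ± 0.24 (limma unadjusted p = 0.00057, adjusted p = 0.19). Without Gata6 bud 1 and Gata5/6 bud 1, where Gata6 at bud is 1 library, it differed by 0.86. As lft2 was under 1 RPKM in every 6-somites library, these values are a description. Their size depended on the scale, with 1.83 at a pseudocount of 0.1 RPKM and 2.08 in limma-voom on recovered reads.

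In the fit of all 16 libraries, none of the 12 receptors and none of smad1, smad2, smad5, smad9, the 2 smad3 and the 2 smad4 genes was called in any comparison with WT; bambi, tgfbr1, tgfbr2 and acvr2b were called in other fits, as given above. smad5, which encodes the BMP-regulated Smad of the early embryo, ranged from 17.4 to 23.7 RPKM over the 16 libraries, and smad2 from 3.17 to 4.69 RPKM. The log2 changes of smad5 lay between -0.11 and 0.07 and those of acvr2a, a type II receptor gene, between -0.10 and 0.03. tgfbr1 ENSDARG00000042259 varied most among receptors: it had 7.65 and 12.7 RPKM in Gata5/6 morphants at 6-somites, against 18.7 and 17.2 in WT embryos (-0.80 ± 0.32, adjusted p = 0.21), without overlap. chrd was between -0.46 and 0.04 in all 6 comparisons, the lowest in Gata5 morphants at 6-somites, with 32.8 and 28.9 RPKM against 43.4 and 42.1 in WT embryos (adjusted p = 0.25).

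Other genes of the pathways gave few calls. Not all readout genes are covered: vent, vox, ved and foxi1 for BMP and sox17 and sox32 for Nodal are not analysed here. Of the 22 BMP readout genes and modulators, limma called none in any of the 6 comparisons with WT; counts at an unadjusted p under 0.05 follow, each beside the share of all genes. At 6-somites 2 were lower in Gata5/6 (17.5% of all genes in either direction), 0 in Gata5 (11.1%) and 1 in Gata6 morphants (9.09%), and none was higher. At bud 6 were lower in Gata5/6 (14.6%), 5 in Gata5 (10.7%) and 3 in Gata6 morphants (19.4%), and 1 was higher, in Gata6 morphants. Of the 15 Nodal readout genes and modulators, gata5 itself was higher in both groups that received its morpholino, at both stages. In Gata5/6 morphants at 6-somites, 2 of the 15 fell, where 3.8% of all genes were called: mespaa, a gene of presomitic mesoderm, with 1.60 and 1.97 RPKM, against 5.35 and 3.81 RPKM in WT embryos (-0.99 ± 0.24, adjusted p = 0.048), and tgfbi, which encodes a matrix protein induced by TGF-beta, with 11.8 and 14.8 RPKM, against 24.5 and 22.7 RPKM in WT embryos (-0.79 ± 0.14, adjusted p = 0.011). In both, the groups did not overlap. In Gata6 morphants at bud noto was the 1 gene of the 15 called, where 1.63% of all genes were called.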

How the data were processed

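Per the labels' protocols, polyA libraries were prepared with the Illumina mRNA-seq kit from 40 embryos each; per the series' design text they were sequenced as single 36-base reads on the Genome Analyzer IIx. The authors deposited 1 RPKM value per gene and library, which is normalized to library size and gene-model length. The build was Zv9 per the submitters' processing notes; the aligner, the counting tool and its use of strand are not stated in the labels or headers. The lowest deposited RPKM equals 1 read and no value is 0, so genes with no read in a library may have been left out. Symbols were matched by Ensembl number, for 19258 of 27257 identifiers. Copies of duplicated genes can share reads, so genes that share a symbol are uncertain. Gene positions and sequences are not analysed here.

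Genes at 1 RPKM or more in at least 2 of 16 libraries and listed in all 16 (14751) were tested on log2(RPKM + 1), a scale that understates changes of low genes, with limma 3.58.1 (R 4.3.3, trend option), a mean per group, all 16 libraries and 8 residual degrees of freedom. P-values are two-sided and adjusted by Benjamini-Hochberg within each of 14 comparisons, and called means an adjusted p under 0.05. The read recovery and the limma fit were tested on simulated data. The design named a count model only for whole counts. RPKM steps gave whole reads for 99.76% of genes at each stage (within 0.01 reads and rounding); these reads gave the depths and entered limma-voom, an alternative test.

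The members, lists and comparisons were chosen with earlier results of these data known. Members are named with values where called in any comparison with WT, between morphants or between stage effects, where among the 8 highest or 8 lowest called changes between WT stages, or as core pathway genes; other genes named after their values were seen are bmp3, smad10a and gdf11. Alternatives are given in the closing section.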

Additional observations from a re-analysis of the deposited data

How the results depend on the processing

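The numbers of members called depended on the setting. In this section, counts with no share of all genes beside them describe the setting and not the members. At 6-somites, Gata5/6 against WT (3 called) gave 1 with a filter at 5 RPKM and 11 with that stage alone (20.2% of all genes). It gave 5 without Gata6 bud 1 and Gata5/6 bud 1. Gata5 (1) gave 0 with a filter at 5 RPKM and 11 with that stage alone (8.47% of all genes). It gave 5 without those 2 libraries, and 2 with no filter or median-of-ratios scaling. Gata6 (0) gave 8 with that stage alone (6.29% of all genes). At bud, the fit of that stage alone called 0 in each comparison; Gata5/6 (2) gave 4 with a filter at 5 RPKM; Gata5 (1) gave 2 with median-of-ratios scaling or voom and 3 without both libraries; Gata6 (1) gave 0 with a pseudocount of 0.1, no filter, a filter at 5 RPKM or median-of-ratios scaling and 9 without both libraries. Gata5/6 against Gata5 (2 at 6-somites) gave 1 with a pseudocount of 0.1, median-of-ratios scaling or voom, 0 with a filter at 5 RPKM and 10 with that stage alone, and at bud (1) 0 with a filter at 5 RPKM. Gata5/6 against Gata6 at 6-somites (0) gave 6 with that stage alone (11.2% of all genes) and 2 without both libraries. At bud (3) it gave 5 with median-of-ratios scaling and 6 with voom. Between WT stages (32), a filter at 5 RPKM, which keeps 35 members, gave 17. Without both libraries the stage difference of the Gata5 effect gave 1 and that of the Gata6 effect 3 (0 called otherwise). The causes were not tested.

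With 1 library left out, the numbers called ranged from 0 to 1 in Gata5/6, were 0 in Gata5 and Gata6 morphants at 6-somites, and from 0 to 2, 0 to 1 and 0 to 6 at bud. Gata5/6 against Gata5 ranged from 0 to 1 at 6-somites and was 1 at bud; Gata5/6 against Gata6 was 0 at 6-somites and ranged from 1 to 8 at bud. WT stages ranged from 18 to 35, and the stage differences of the effects from 0 to 1 in Gata5/6, 0 in Gata5 and 0 to 3 in Gata6.

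The labels give replicates a shared number and no shared clutch or day. Differences between replicates of the groups correlated at 0.23 to 0.533 over genes at 6-somites and 0.189 to 0.557 at bud (6 pairs of groups each), which 2 numbers cannot turn into a pairing. With the replicate number as a block, members called were 2 in Gata5 at 6-somites, 4 in Gata5/6 and 3 in Gata5 at bud, and 1 for the stage difference of the Gata5/6 effect. The block called gdf3 against WT in Gata5/6 (adjusted p = 0.027 at 6-somites and 0.0094 at bud) and in Gata5 morphants (0.028 and 0.032) and for the stage difference of the Gata5/6 effect (0.045), smad6 ENSDARG00000031763 in Gata5/6 (0.045) and id3 in Gata5 morphants (0.037) at bud, none of which the fit without it called. Between WT stages it lost bmp2 ENSDARG00000013409, bmp6, bmp7, tgfb2, acvrl1 and bmpr2.

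Changes of direction were found in uncalled values alone. With 1 library left out, fst ranged from -0.22 to 0.05 in Gata6 at 6-somites and reached -0.03 in Gata5/6 at bud without Gata5/6 2, and bmp8a ranged from -0.15 to 0.01 in Gata5/6 at bud (0.01 also without both libraries). In Gata6 at bud, bmp6 ranged from -0.32 to 0.16 (0.15 without WT 1), gdf3 from -0.37 to 0.27 (0.02 without WT 1), and smad6 ENSDARG00000031763 reached -0.01 without WT 2. Depth limits tgfb1a, bmp6, gdf6b, lft2, bmp8a and smad10b, each with under 10 reads in at least 1 library.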
